A study of Mus musculus with 24 samples.

Results

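The genes described here encode the pore-forming and accessory subunits of voltage-gated sodium channels, voltage-gated calcium channels and HCN channels, the hyperpolarization-activated cation channels that carry the current Ih. They were taken by symbol, as every protein-coding gene in the count tables named Scn with a number and a or b, Cacna1 or Cacna2d with a suffix, Cacnb or Cacng with a number, or Hcn with a number, leaving out Scn4b. This gave 43 of the 33364 genes listed: 10 sodium α and 3 sodium β subunits, 10 calcium α1, 4 α2δ, 4 β and 8 γ subunits, and 4 HCN channels. RNA-seq had been performed on 2 punched areas of frontal cortex, the mPFC (medial prefrontal) and the ACC (anterior cingulate), of C57BL/6J mice, labelled as C57BL/6 and 3 months old. They were taken 2 weeks after SNI (spared nerve injury, a surgical model of neuropathic pain) or after sham surgery. Females and males were kept apart, so that there were 8 groups of 3 libraries, 24 in all: female sham, female SNI, male sham and male SNI, each in the mPFC and in the ACC. Several animals were pooled for each library, so the p-values measure the spread between pools and not between single mice, and the sources used here do not tie the mPFC and ACC pools of a group to the same animals. The study asked how the transcriptomes of both regions change after SNI in each sex, and the design also allows the regions to be set against each other.

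Sodium channels open upon depolarization and drive the action potential, with 1 α subunit forming the pore and the β subunits tuning its gating and its place in the membrane. Calcium channels turn depolarization into calcium entry for transmitter release, dendritic signals and transcription: the α1 subunit is the pore, the α2δ and β subunits set its trafficking and gating, and several γ subunits are better known as TARPs, the partners of AMPA-type glutamate receptors. HCN channels open upon hyperpolarization and set the resting potential and the way that dendrites, above all those of deep-layer pyramidal neurons, sum their inputs.

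The gene counts of a library summed to between 23853845 and 32864391 reads (median 26727282). The sexes matched their labels, as Xist lay between 556 and 763 CPM, the read count scaled to a common library size, in the 12 female libraries and between 0.037 and 3.02 CPM in the 12 male ones. Neuronal transcripts were present throughout: the summed level of 17 pan-neuronal marker genes ran from 14620 to 15880 CPM in the mPFC and from 15150 to 15900 CPM in the ACC. In 5 libraries (female sham mPFC replicates 1 and 2, male sham ACC replicate 3, male SNI ACC replicates 1 and 2) GC-rich genes were raised relative to AT-rich ones, by more than 0.1 log2 units per 10 points of exon GC content. In 3 others (female SNI mPFC replicate 1, female sham ACC replicate 2, male sham ACC replicate 1) they were lowered by more than 0.1. All tests below are edgeR's quasi-likelihood F-test with Benjamini-Hochberg adjustment over all genes tested, and a gene was called at an adjusted p under 0.1. Levels are CPM after TMM scaling, unless they are given per kilobase (kb) of exon, the scale used to compare genes with each other.

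Most of these channel genes differed between the 2 regions, in both directions. Of the 43 genes, 38 had enough reads to be tested, and 34 of those 38 were called between the mPFC and the ACC, 19 higher in the mPFC and 15 higher in the ACC. Over all 18078 genes tested the share called was 49%, with 24.3% higher in the mPFC and 24.7% higher in the ACC, and among the channel genes it was 89.5%. Of the 18078 genes, 9907 had a mean of at least 10 CPM and 58.6% of these were called, against 27 of the 30 channel genes of that level. The differences were mostly modest: the median of their absolute log2 fold change was 0.34 over the 38 channel genes and 0.13 over all genes, and the called ones ran from 1.06-fold (Scn2b) to 2.326-fold (Scn9a). The median signed value was 0.18 in the channel genes and 0.0034 over all genes, on the log2 scale of mPFC minus ACC. In 11 of the 38 the 12 mPFC libraries did not overlap the 12 ACC libraries, which was so for 4.86% of all genes tested. DESeq2 and edgeR without a filter on low counts also called 34 channel genes, beside 37.7% and 26% of the genes they tested. Since these are bulk samples, fewer cells of a type and less RNA per cell cannot be told apart.

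**Figure D1:**
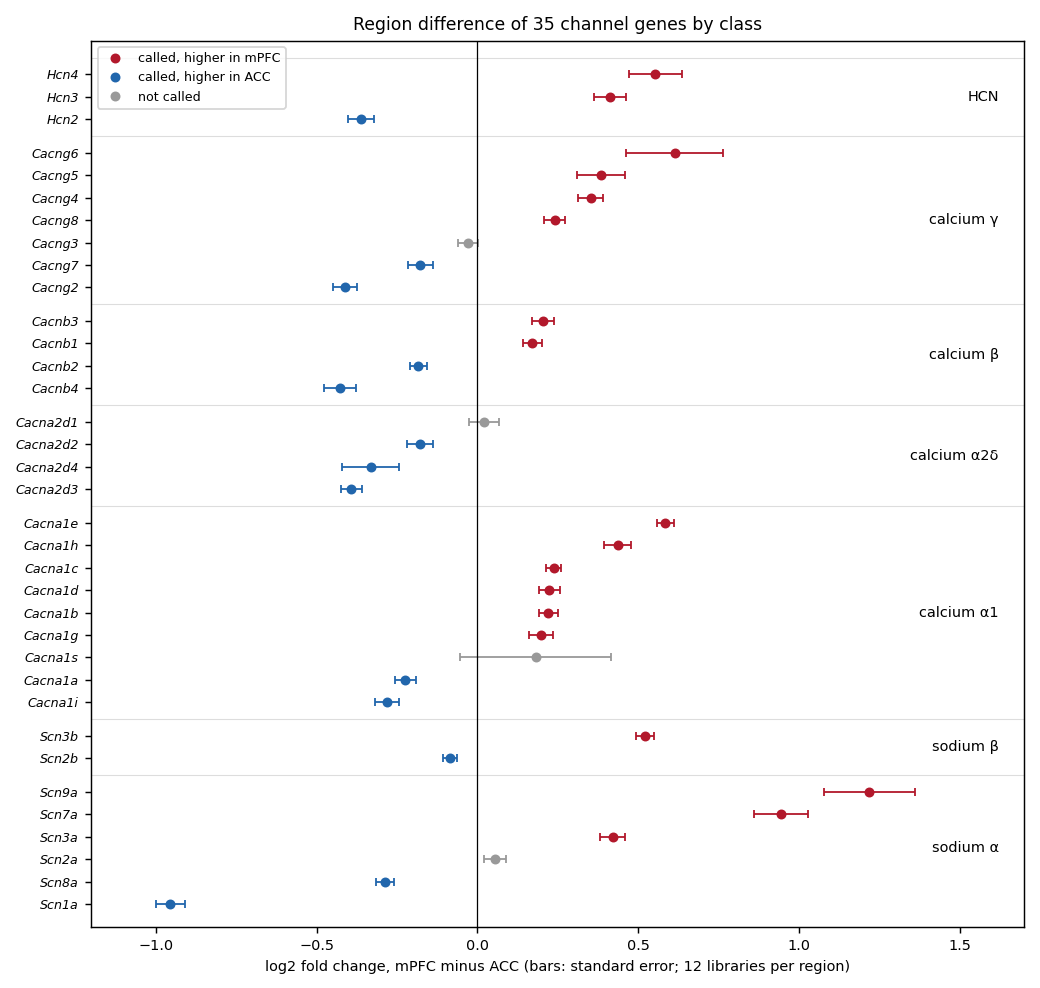
Log2 fold change of the mPFC minus the ACC (x axis) for 35 of the channel genes tested, grouped by class, with the standard error as bars and 12 libraries per region. Each class but the α2δ subunits has called genes on both sides of 0, from Scn1a at -0.95 to Scn9a at 1.22.

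The sodium channel α subunits differed in both directions. Scn1a, whose product Nav1.1 is the sodium channel known for fast-spiking interneurons, had the largest difference towards the ACC of all 38. It ran from 91.2 to 115.5 CPM in the mPFC with a median of 98.4, and from 168.6 to 223.1 CPM in the ACC with a median of 203.5. The highest mPFC library lay well below the lowest ACC library, and the log2 fold change was -0.95 ± 0.045 (standard error, here and below; adjusted p = 8.01e-14), a 1.94-fold lower level in the mPFC. Scn8a, which encodes Nav1.6, the main channel of the axon initial segment and nodes in mature neurons, ran from 395.7 to 485.1 CPM (median 445.2) in the mPFC and from 508.8 to 582.6 CPM (median 549.3) in the ACC. Here too the libraries of the regions did not overlap, although the difference was only 1.22-fold (log2 fold change -0.29 ± 0.029, adjusted p = 2.61e-08). Scn2a, which encodes Nav1.2 of pyramidal neurons, did not pass the test (log2 fold change 0.054 ± 0.035, adjusted p = 0.227). Its level ran from 411.5 to 519.6 CPM in the mPFC and from 376.9 to 467.9 CPM in the ACC. With the GC trend taken out it was called higher in the mPFC (0.098, adjusted p = 0.0113). The same held with scaling to pan-neuronal genes (0.088, adjusted p = 0.0213). Of the other settings that kept all libraries, only the replicate block with GC correction called it.

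The sodium α subunits that were higher in the mPFC were less abundant. Scn3a encodes Nav1.3, a channel best known from the developing brain, and ran from 50.5 to 63.6 CPM (median 56.5) in the mPFC and from 35.3 to 45.9 CPM (median 42.2) in the ACC. Its libraries did not overlap between the regions (log2 fold change 0.42 ± 0.039, adjusted p = 4.75e-09). Scn7a encodes Nax, a sodium-sensing relative of the channels, and its libraries also did not overlap, with 8.14 to 15.4 CPM (median 9.75) in the mPFC and 2.79 to 8.03 CPM (median 5.75) in the ACC. The log2 fold change was 0.94 ± 0.085 (adjusted p = 3.63e-09). The gap between the regions was narrow: the highest ACC value was that of a female sham pool, the lowest mPFC value that of a male sham pool. Scn9a encodes Nav1.7, known from pain-sensing neurons, and was low in both regions, at 1.20 to 2.84 CPM in the mPFC and 0.47 to 1.53 CPM in the ACC. Its libraries overlapped, but the mean difference was the widest of all, 2.326-fold (log2 fold change 1.22 ± 0.14, adjusted p = 2.07e-07).

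Neighbouring channel genes differed in direction in some clusters and not in others, which was not tested. On chromosome 2 (GRCm38, GENCODE M21), 5 sodium α genes lie side by side between 65457118 and 66784914, in the order Scn3a, Scn2a, Scn1a, Scn9a and Scn7a. Along this stretch the log2 fold changes were 0.42, 0.054, -0.95, 1.22 and 0.94, so the gene with the largest difference towards the ACC has Scn9a, the gene with the largest towards the mPFC, as its next neighbour among the channel genes. The γ subunits of chromosome 7, between 3332955 and 3435667, were likewise split, with -0.18 for Cacng7, 0.24 for Cacng8 and 0.61 for Cacng6. On chromosome 11, between 107703218 and 107915055, the neighbours Cacng4 (0.35) and Cacng5 (0.38) were both higher in the mPFC, and Cacng1 beside them was too low to test. Of the 43 genes, 23 overlap an annotated gene on the other strand and 7 one on the same strand. How strand was used in counting is not given in the sources used here, and reads of such overlaps cannot be told apart.

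Sodium β subunits were called in both directions. Scn3b, which encodes β3, was higher in the mPFC, with 112.5 to 143.5 CPM (median 129.8) in the mPFC and 79.6 to 100.5 CPM (median 91.2) in the ACC (log2 fold change 0.52 ± 0.027, adjusted p = 4.04e-13). No mPFC library overlapped any ACC library. Scn2b, which encodes β2, was higher in the ACC but differed by only 1.06-fold, from 277.7 to 307.5 CPM in the mPFC and from 296.4 to 328.0 CPM in the ACC (log2 fold change -0.085 ± 0.021, adjusted p = 0.00251).

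**Figure D2:**
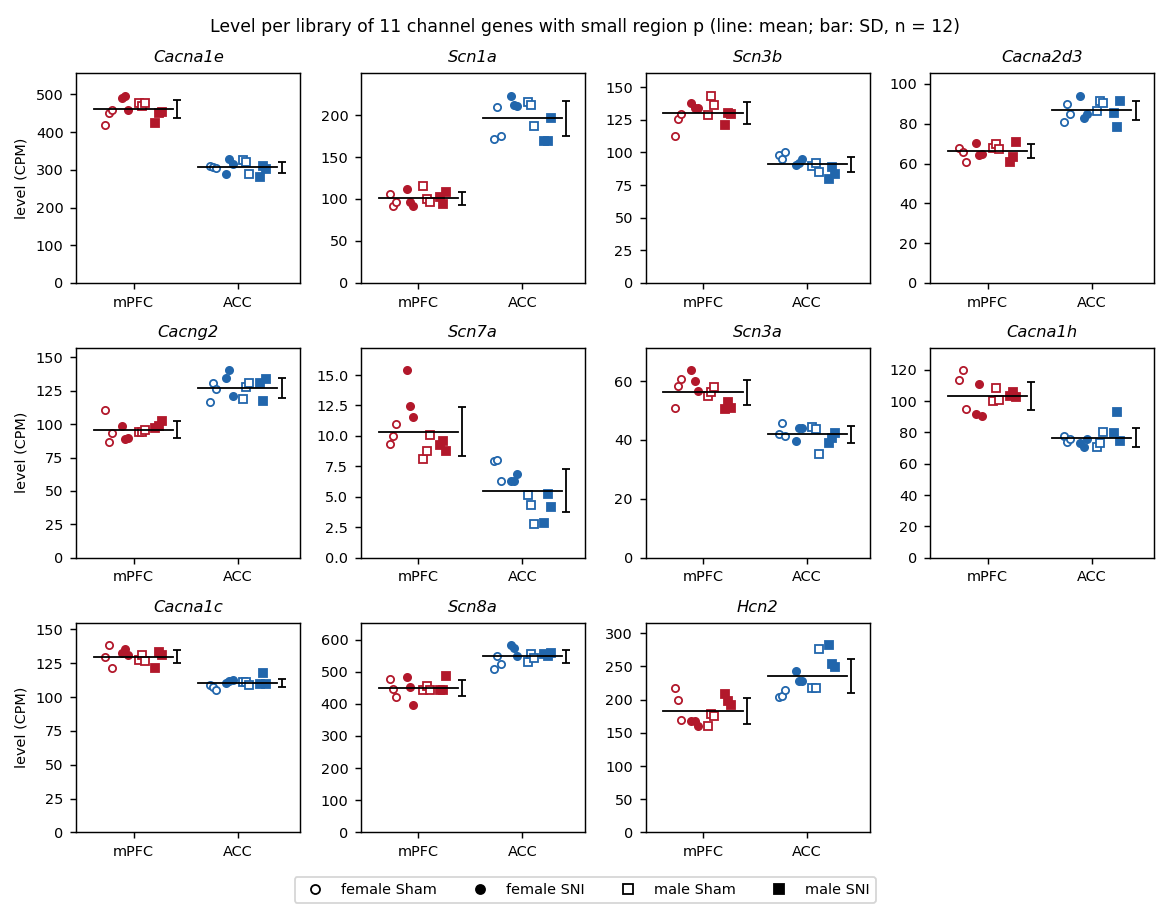
Level in CPM (y axis, linear from 0) of 11 channel genes with small p between regions, with a point for each library, a line at the mean and a bar for the SD (n = 12 per region). In 9 of the 11 panels the mPFC and ACC points do not overlap; in Cacna1h and Hcn2 they do.

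Of the calcium channel α1 subunits, 8 of the 9 tested were called, 6 higher in the mPFC and 2 higher in the ACC. Cacna1e, which encodes the R-type channel Cav2.3, was the most clearly separated: 418.0 to 496.8 CPM (median 457.9) in the mPFC against 281.4 to 329.7 CPM (median 308.5) in the ACC. The lowest mPFC library lay above the highest ACC library, and the difference was 1.499-fold (log2 fold change 0.58 ± 0.027, adjusted p = 8.01e-14). The L-type channels Cacna1c and Cacna1d, which link depolarization to transcription, were both higher in the mPFC. Cacna1c ran from 121.5 to 138.4 CPM (median 131.0) in the mPFC and from 105.1 to 117.6 CPM (median 110.2) in the ACC, without overlap (log2 fold change 0.24 ± 0.023, adjusted p = 1.7e-08). Cacna1d differed by a log2 fold change of 0.22 ± 0.032 (adjusted p = 3.65e-06), with overlapping libraries.

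The presynaptic pair of the Cav2 family was split. Cacna1a, the P/Q-type channel, was higher in the ACC, with 255.1 to 320.4 CPM against 211.1 to 266.3 CPM in the mPFC (log2 fold change -0.22 ± 0.033, adjusted p = 5.31e-06), while Cacna1b, the N-type channel, was higher in the mPFC, with 143.1 to 172.1 CPM against 124.7 to 149.5 CPM (log2 fold change 0.22 ± 0.03, adjusted p = 2.20e-06). The libraries of the regions overlapped in both. The low-voltage-activated T-type channels were split as well. Cacna1h was 1.35-fold higher in the mPFC, where it ran from 90.5 to 119.6 CPM (median 102.7) against 70.7 to 93.2 CPM (median 74.97) in the ACC (log2 fold change 0.44 ± 0.042, adjusted p = 1.06e-08). Cacna1g was higher in the mPFC by a log2 fold change of 0.20 ± 0.037 (adjusted p = 0.00015), whereas Cacna1i was higher in the ACC by a log2 fold change of -0.28 ± 0.037 (adjusted p = 1.31e-06). Cacna1s, the channel of skeletal muscle, was detected at only 4 to 18 reads per library and was not called (log2 fold change 0.18 ± 0.23, adjusted p = 0.57).

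Without correction of the GC trend, the α2δ subunits were the only class with no gene higher in the mPFC among those called. Cacna2d3 ran from 60.5 to 70.8 CPM (median 66.5) in the mPFC and from 78.3 to 94.1 CPM (median 85.8) in the ACC, with no overlap (log2 fold change -0.39 ± 0.033, adjusted p = 1.28e-09). Cacna2d2 (-0.18 ± 0.041, adjusted p = 0.00106) and the low Cacna2d4 (-0.33 ± 0.088, adjusted p = 0.00395) were also higher in the ACC over all libraries. Fitted by sex and treatment, Cacna2d2 had the other sign in female sham mice (0.11, adjusted p = 0.287). Cacna2d4 had it in male sham mice (0.12, adjusted p = 0.767), and neither was called there. Cacna2d1, which with Cacna2d2 encodes the binding sites of gabapentin and pregabalin, was not called over all libraries (log2 fold change 0.02 ± 0.045, adjusted p = 0.751). With the GC trend taken out, Cacna2d1 was called higher in the mPFC (0.071, adjusted p = 0.0481). Its value differed between the strata: in female sham mice it was called lower in the mPFC (-0.23, adjusted p = 0.0652) and in male SNI mice higher (0.22, adjusted p = 0.0174), but neither the region by sex term (-0.23, adjusted p = 0.289) nor the region by SNI term (0.23, adjusted p = 0.472) passed the test. Leaving out female sham mPFC replicate 3, female SNI mPFC replicate 1 or male sham ACC replicate 3 turned the pooled sign, with values of -0.011, -0.0039 and -0.0091.

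Each of the 4 cytoplasmic β subunits of calcium channels was called, 2 in each direction. Cacnb4, the subunit that is lost in the lethargic mouse, was 1.34-fold higher in the ACC, with 308.9 to 429.3 CPM (median 388.1) against 243.4 to 345.6 CPM (median 282.4) in the mPFC (log2 fold change -0.43 ± 0.05, adjusted p = 2.12e-07). Cacnb2 followed in the same direction without overlap between the libraries, at 36.3 to 41.7 CPM in the mPFC and 41.8 to 48.4 CPM in the ACC (log2 fold change -0.18 ± 0.026, adjusted p = 4.50e-06). Cacnb3 (0.20 ± 0.034, adjusted p = 4.01e-05) and Cacnb1 (0.17 ± 0.03, adjusted p = 6.84e-05) were higher in the mPFC.

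Of the γ subunits 6 of the 7 tested were called, 4 higher in the mPFC and 2 higher in the ACC. Cacng2 encodes stargazin, the TARP lost in the stargazer mouse. It ran from 86.8 to 110.7 CPM (median 94.8) in the mPFC and from 117.0 to 140.3 CPM (median 129.1) in the ACC, with no overlap (log2 fold change -0.41 ± 0.037, adjusted p = 2.90e-09). Cacng8, the TARP γ-8 of hippocampus and cortex, was higher in the mPFC (0.24 ± 0.033, adjusted p = 2.08e-06), as was Cacng4, γ-4, at 30.1 to 39.8 CPM against 25.5 to 31.4 CPM in the ACC (0.35 ± 0.04, adjusted p = 1.32e-07). Cacng3, γ-3, was not called and ran from 121.1 to 149.1 CPM in the mPFC and from 125.9 to 152.2 CPM in the ACC (-0.03 ± 0.032, adjusted p = 0.474). The type II TARPs Cacng5 (0.38 ± 0.074, adjusted p = 0.000179) and Cacng7 (-0.18 ± 0.039, adjusted p = 0.000646) took opposite directions. Cacng6, a γ subunit known from muscle, ran from 0.31 to 0.995 CPM over all libraries and was 1.53-fold higher in the mPFC (0.61 ± 0.15, adjusted p = 0.00218).

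Among the HCN channels Hcn2, which is abundant in forebrain neurons, was higher in the ACC by 1.29-fold. Hcn2 ran from 160.6 to 216.8 CPM (median 177.2) in the mPFC and from 204.4 to 282.1 CPM (median 228.3) in the ACC (log2 fold change -0.36 ± 0.04, adjusted p = 1.09e-07). A few libraries overlapped: the highest Hcn2 value of the mPFC was that of female sham replicate 1, one of the 5 libraries with raised GC-rich genes. Hcn3 (19.3 to 25.9 CPM against 15.9 to 20.4 CPM) and Hcn4, the pacemaker channel of the heart (4.49 to 9.35 CPM against 4.12 to 5.77 CPM), were higher in the mPFC, with log2 fold changes of 0.41 ± 0.051 (adjusted p = 5.26e-07) and 0.55 ± 0.082 (adjusted p = 7.78e-06).

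The 5 genes that were too low to test were Scn4a, Scn10a, Scn11a, Cacna1f and Cacng1. Scn10a and Scn11a encode the sensory neuron channels Nav1.8 and Nav1.9, and their highest counts in any library were 9 and 4 reads. Scn4a, the skeletal muscle sodium channel, and Cacng1, the skeletal muscle γ subunit, reached 3 and 2 reads, and Cacna1f, the retinal L-type channel, reached 10. A count of 0 allows up to 3 reads, which is 0.091 to 0.126 CPM at these depths. Scn10a and Cacna1f each had more than 3 reads in 14 of the 24 libraries and Scn11a in 1, so that Scn10a and Cacna1f were detected at a low level. Scn4a and Cacng1 never exceeded 3 reads, and a count of 0 in a library does not show these genes to be absent there. Scn4a had 1 to 3 reads in each female ACC library and 0 in each female mPFC library, which was not tested.

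Per kb of exon, the makeup of each class shifted between the regions although its leading gene stayed the same in 6 of the 7 classes. In the sodium α class Scn2a took 44.5% ± 1.27 (SD, n = 12) of the summed level in the mPFC and 37.4% ± 1.4 in the ACC, while Scn1a took 11.5% ± 0.73 and 19.4% ± 1.24. Scn8a followed Scn2a in the mPFC, at 36.03% ± 1.30, and was level with it within the spread in the ACC, at 38.4% ± 1.79. The shares of Scn1a in single libraries ran from 10.5% to 13.1% in the mPFC and from 17.5% to 20.9% in the ACC and did not overlap. Scn3b held 10.3% ± 1.18 of the sodium β level in the mPFC and 5.25% ± 0.67 in the ACC. Among the α1 subunits Cacna1a led with 19.1% ± 0.70 in the mPFC and 23.9% ± 1.05 in the ACC. Cacna1e ranked second in the mPFC, at 16.8% ± 1.25, and below Cacna1i, Cacna1b and Cacna1g in the ACC, at 12.02% ± 0.90. Hcn2 held 81.3% ± 1.78 of the HCN level in the mPFC and 84.7% ± 1.88 in the ACC, Cacna2d1 64.3% ± 2.76 and 58.7% ± 3.62 of the α2δ level, Cacnb3 47.7% ± 1.596 and 41.9% ± 3.04 of the β level, and Cacng7 31.5% ± 1.28 and 34.6% ± 1.46 of the γ level. The summed level itself was lower in the mPFC for the HCN class (70.3 ± 6.00 against 86.8 ± 7.73 CPM per kb) and close to equal for the calcium β class (141.0 ± 5.74 against 139.1 ± 3.16). These shares describe RNA, use the union of annotated exons as the length and were not tested.

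**Figure D3:**
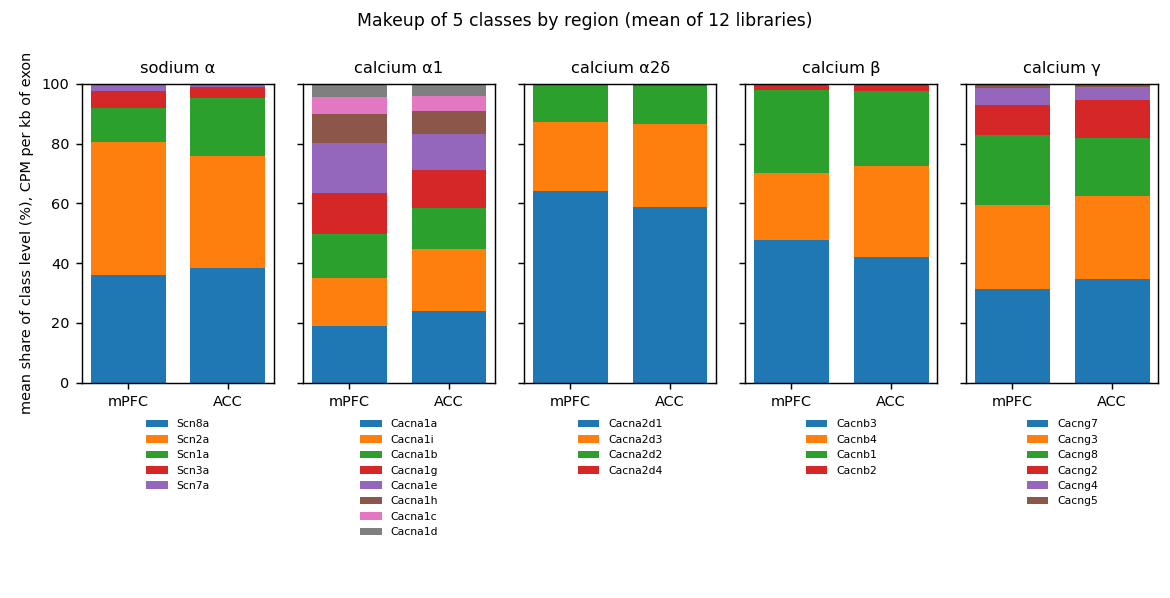
Share of each gene (y axis, %) in the summed level of its class, in CPM per kb of exon, as the mean of 12 libraries in each region; 5 of the classes are drawn, without genes under 0.5% in both regions. Scn1a takes 11.5% of the sodium α class in the mPFC and 19.4% in the ACC, and Cacna2d1 takes 64.3% and 58.7% of the α2δ class.

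The region differences were then fitted in each sex and treatment by itself, with 3 pools per region. In female sham mice 27 of 38 channel genes were called (28.5% of all genes), 18 higher in the mPFC and 9 higher in the ACC (14% and 14.5% of all genes). In female SNI mice 33 of 38 were called (27.6%), 18 and 15 (13.7% and 13.9%). In male sham mice 22 of 38 were called (14.2%), 12 and 10 (7.46% and 6.7%), but without mPFC replicate 2 or replicate 3 only 14 were called, 6 and 8 (6.69% and 6.61% of all genes). In male SNI mice 29 of 37 were called (21%), 17 and 12 (10.4% and 10.6%). Of the 37 genes tested in all 4 fits, 18 were called in the same direction every time, against 7.16% of all genes, and 32 had the same sign every time, against 47.2%. Among them were Scn1a, Scn8a, Cacna2d3, Cacnb4 and Cacng2 towards the ACC, and Scn3a, Scn7a, Scn9a, Scn3b, Cacna1b, Cacna1c, Cacna1e, Cacna1h, Cacng4, Cacng8 and Hcn3 towards the mPFC. For Scn1a the log2 fold change was -0.91 in female sham, -1.10 in female SNI, -0.97 in male sham and -0.81 in male SNI mice. For Cacna1e it was 0.53, 0.63, 0.62 and 0.57 in the same order. Hcn2 was close to level in female sham mice (-0.084, adjusted p = 0.497) and lower in the mPFC in the other fits (-0.49, -0.46 and -0.40), where it was called each time. Hcn2 was called in female sham mice as well with the GC trend taken out (-0.28, adjusted p = 0.00336), with -0.50, -0.45 and -0.39 in the others. Without the 5 libraries with a raised GC trend all of the 34 genes called over all libraries were called again in the same direction, and the exon GC content of the 38 genes did not run with their region difference (Spearman rho -0.004 across genes, which share libraries and are not replicates).

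To set the members beside genes of known cell types, marker lists were counted in the same fit. The 6 markers of parvalbumin interneurons were all called, 5 lower in the mPFC, and their summed level ran from 335.3 to 410.8 CPM in the mPFC and from 469.4 to 581.4 CPM in the ACC. None was at 0 in either region. Pvalb itself ran from 8.91 to 15.2 CPM in the mPFC and from 31.0 to 44.9 CPM in the ACC, and Syt2 from 8.84 to 26.0 and from 57.9 to 99.3 CPM. Scn1a moved in the direction of these markers, whose part in the channel differences was not tested. The 12 oligodendrocyte markers ran from 1148 to 3994 CPM in sum in the mPFC and from 2631 to 4333 CPM in the ACC, and 10 were called lower in the mPFC. Within the groups, 2 of the 12 were called lower in female sham and 0 in male sham mice, against 11 in female SNI and 10 in male SNI mice. Of the 7 layer 5 markers, 5 were called lower and 2 higher in the mPFC (sum 456.7 to 526.6 against 554.6 to 679.1 CPM), while 4 of the 5 layer 6 markers were called higher (169.0 to 243.2 against 142.4 to 207.0 CPM). Of the 8 striatal markers, 5 were called higher and 1 lower in the mPFC (218.0 to 291.3 against 198.4 to 247.4 CPM), and of the 17 pan-neuronal genes 6 were called higher and 5 lower. The 8 endothelial and mural markers were all called lower in the mPFC, and their sums did not overlap (300.6 to 361.4 against 373.7 to 424.1 CPM). The sums of the 7 inhibitory neuron markers did not overlap either (956.6 to 1051 against 1107 to 1234 CPM), with 4 called lower. Of the 8 astrocyte markers 7 were called lower and 1 higher (4852 to 5662 against 5263 to 6189 CPM), and of the 7 meningeal fibroblast markers 6 were called lower (73.3 to 129.0 against 100.5 to 218.7 CPM). Of the 8 microglia markers 6 were called higher in the mPFC (338.1 to 378.4 against 322.9 to 366.2 CPM). The layer 2/3 (6 genes), excitatory neuron (7), oligodendrocyte precursor (6) and immediate early (8) lists each had called genes in both directions. Their sums overlapped between the mPFC and the ACC. These were 619.5 to 702.8 against 670.4 to 761.7 CPM for layer 2/3 and 6208 to 7314 against 6059 to 7356 CPM for excitatory neurons. The part of these lists in the channel differences was not tested either. Scaling to the pan-neuronal genes kept each of the 34 calls and added Scn2a, which made 20 higher in the mPFC and 15 higher in the ACC. The same scaling moved the split over all genes from 4399 higher and 4463 lower in the mPFC to 5522 and 3313.

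A list of 30 genes whose products bind, anchor or regulate these channels was counted too, and 29 of them were tested. Of these, 20 were called, 9 higher in the mPFC and 11 higher in the ACC, with a median log2 fold change of -0.046. The same fit called 8862 of all 18078 genes tested. The smallest p-values belonged to Stac2, Pex5l and Rims1. Stac2, an adaptor of L-type calcium channels, ran from 82.1 to 120.2 CPM in the mPFC and from 127.5 to 191.5 CPM in the ACC (log2 fold change -0.71 ± 0.049, adjusted p = 3.68e-11). Pex5l encodes TRIP8b, the accessory subunit that traffics HCN channels to dendrites, and was higher in the ACC as Hcn2 was (-0.29 ± 0.025, adjusted p = 2.04e-09). Rims1, an active-zone protein that holds calcium channels at release sites, was also higher in the ACC (-0.36 ± 0.034, adjusted p = 6.31e-09).

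Promoters are shown for 3 called genes in each direction. A gene needed a RefSeq start within 1000 bases of the GENCODE gene start and at most 30 annotated exon bases in the window. Those with the smallest p were taken. Each line holds the 250 bases before the RefSeq start, 5′ to 3′ on the gene's own strand (GRCm38.p6), with capitals at the GC box GGGCGG, the CCAAT box CCAAT, the TATA box TATAAA, the cyclic AMP response element TGACGTCA and the E box CACGTG on either strand. Scn7a (chr2:66784911-66785160, minus strand), Cacna1c (chr6:119196410-119196659, minus) and Scn9a (chr2:66634963-66635212, minus) were higher in the mPFC. Cacna2d3 (chr14:29721865-29722114, minus), Scn8a (chr15:100870395-100870644, plus) and Hcn2 (chr10:79716384-79716633, plus) were higher in the ACC. For Scn8a the RefSeq start lies 787 bases downstream of the GENCODE gene start (100869858), so its window lies inside the annotated gene.
Scn7a: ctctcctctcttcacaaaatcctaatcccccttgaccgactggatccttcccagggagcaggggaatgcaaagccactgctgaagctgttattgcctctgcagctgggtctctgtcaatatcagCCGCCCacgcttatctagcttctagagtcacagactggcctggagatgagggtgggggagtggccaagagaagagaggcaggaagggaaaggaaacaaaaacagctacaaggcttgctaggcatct
Cacna1c: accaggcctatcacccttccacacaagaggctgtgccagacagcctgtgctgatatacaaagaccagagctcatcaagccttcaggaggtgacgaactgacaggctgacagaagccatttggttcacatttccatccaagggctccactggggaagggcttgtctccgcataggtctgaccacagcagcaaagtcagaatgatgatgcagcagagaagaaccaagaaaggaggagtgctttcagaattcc
Scn9a: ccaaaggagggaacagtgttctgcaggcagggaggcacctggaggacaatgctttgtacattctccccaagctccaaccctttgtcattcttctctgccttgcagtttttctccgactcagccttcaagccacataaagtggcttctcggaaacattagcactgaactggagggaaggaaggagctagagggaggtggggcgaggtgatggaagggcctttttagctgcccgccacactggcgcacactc
Cacna2d3: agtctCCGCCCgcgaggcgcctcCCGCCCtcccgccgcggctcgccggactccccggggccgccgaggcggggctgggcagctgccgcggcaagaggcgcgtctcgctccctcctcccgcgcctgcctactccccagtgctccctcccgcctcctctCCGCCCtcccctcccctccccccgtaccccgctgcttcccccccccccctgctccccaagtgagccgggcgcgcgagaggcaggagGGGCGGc
Scn8a: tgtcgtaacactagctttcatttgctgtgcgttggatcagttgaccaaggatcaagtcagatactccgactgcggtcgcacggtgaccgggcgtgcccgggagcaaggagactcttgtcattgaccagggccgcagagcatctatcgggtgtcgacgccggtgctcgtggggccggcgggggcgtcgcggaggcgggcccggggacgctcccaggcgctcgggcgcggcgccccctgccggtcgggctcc
Hcn2: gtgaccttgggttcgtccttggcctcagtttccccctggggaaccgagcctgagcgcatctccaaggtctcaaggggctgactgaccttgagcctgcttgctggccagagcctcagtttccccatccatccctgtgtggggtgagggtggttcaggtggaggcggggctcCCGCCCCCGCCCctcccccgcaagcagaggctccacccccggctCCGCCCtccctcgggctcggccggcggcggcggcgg
Of the 43 genes, 31 had a promoter entry and 25 had one within 1000 bases of the gene start. A GC box was found in 13 of these 25 windows and in 32.7% of all 32851 promoter windows in the RefSeq table. It was in 5 of 9 windows of genes higher in the mPFC and in 5 of 10 of genes higher in the ACC, with 4 copies before Cacna2d3 and 3 before Hcn2. The CCAAT box was in 6 of 25 (33.9% of all), the TATA box in 1 (12.4%), and the cyclic AMP response element and the E box in none (1.55% and 6.02%). The median GC content of the windows was 54.4% for the 9 genes higher in the mPFC, 65.2% for the 10 higher in the ACC and 52.4% over all windows. These matches describe letters in a window and were not tested.

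SNI against sham called few channel genes. In the male mPFC 1 of the 38 was called, where 84 of 16989 genes (0.494%) were called. Hcn2 was not called, with 161.0, 175.5 and 178.9 CPM in the sham pools and 191.7, 197.4 and 208.2 CPM in the SNI pools. Each SNI pool lay above each sham pool, as in 11 of the 38 channel genes, with 3 the other way and 17% of all genes one or the other. The log2 fold change of SNI minus sham was 0.22 ± 0.051 (adjusted p = 0.11). The T-type channel Cacna1i had 0.17 ± 0.048 (adjusted p = 0.186). Both were called by DESeq2 (adjusted p = 0.0127 for Hcn2 and 0.0692 for Cacna1i), and Hcn2 also by edgeR with at least 10 counts in every library (0.0788). Without a filter on low counts edgeR called both (0.00237 and 0.0448). With the GC trend taken out, their log2 fold changes were 0.056 and 0.083 (adjusted p = 0.85 and 0.741). At an unadjusted p under 0.05 there were 12 channel genes, 10 higher and 2 lower after SNI, where all genes gave 11.2%. DESeq2 called 5 (2.52% of the genes it tested), and edgeR with at least 10 counts in every library 2 (0.821%). With a block on the replicate number edgeR called 7 (745 of all genes), with Hcn2 at an adjusted p of 0.0262 and Cacna1i at 0.0206. It called 0 with the block and the GC trend taken out, and the numbers were not taken to pair the samples. None was called when the GC trend was taken out, with scaling to pan-neuronal genes or in the model of all 24 libraries, nor on leaving out any library but sham replicate 2, 1 at a time.

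The GC content of the exons ran with the SNI differences of the channel genes. Across the 38 genes in the male mPFC the Spearman rho of log2 fold change and exon GC content was 0.70, and Hcn2 (65.4% GC) is among the most GC-rich. In the female mPFC rho was -0.75, in the male ACC 0.71 (37 genes) and in the female ACC -0.002. These are descriptions across genes that share libraries, and exon GC content is a fixed property of each gene. The GC trend of the libraries overlapped between the sham and SNI pools of each group, and its difference was not tested: from -0.089 to 0.011 log2 units per 10 points of GC in the male sham mPFC against 0.0048 to 0.063 in the male SNI mPFC, and from -0.072 to 0.16 against -0.12 to -0.014 in the female mPFC, and from -0.10 to 0.20 against 0.039 to 0.19 in the male ACC. Of the 12 oligodendrocyte markers, 8 were also called lower after SNI in the male mPFC (summed level 3470 to 3994 CPM in sham, 2059 to 2988 CPM in SNI). There the summed levels of the 7 excitatory neuron markers (6208 to 6535 CPM in sham, 6930 to 7314 CPM in SNI) and the 6 parvalbumin interneuron markers (356.3 to 363.2 and 370.0 to 397.4 CPM) were higher in each SNI pool. Those of the layer 5 (495.4 to 526.6 and 468.0 to 493.6 CPM) and layer 6 markers (214.4 to 240.1 and 169.0 to 192.6 CPM) were lower, with 3 of the 5 layer 6 markers called. SNI replicate 2 stood apart with 84.2 CPM of choroid plexus and ependymal markers, against 9.46 to 11.9 CPM in the other pools, and had the lowest oligodendrocyte sum. Without it the values were 0.23 for Hcn2 and 0.13 for Cacna1i (adjusted p = 0.294 and 0.602). The part of these lists in the value of Hcn2 was not tested.

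**Figure D4:**
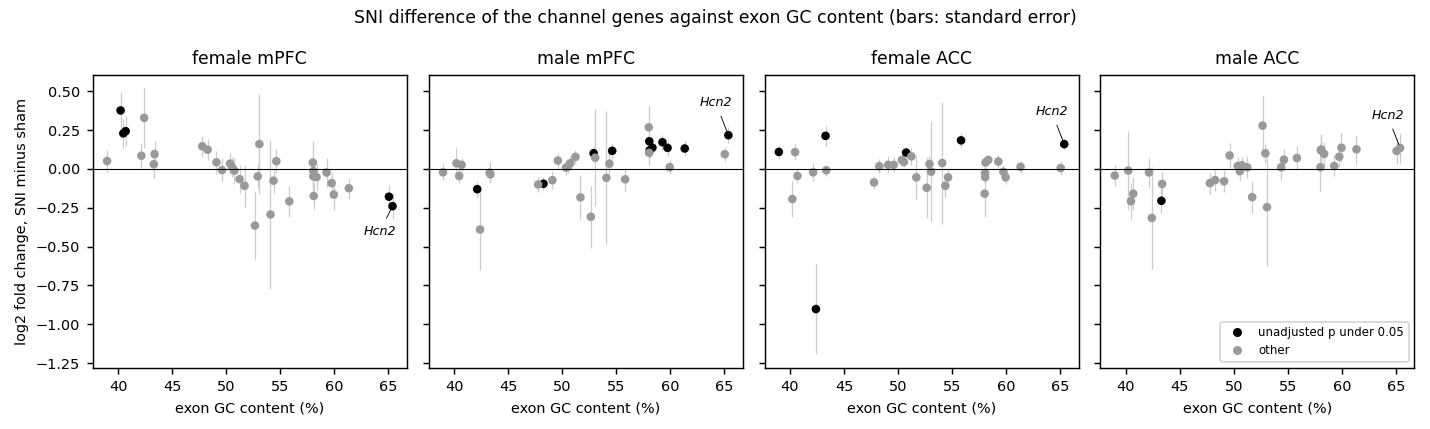
Log2 fold change of SNI minus sham (y axis) against exon GC content in % (x axis) for 35 of the channel genes in the 4 sex and region groups (34 in the male ACC), with standard errors (3 pools per group). The points slope down in the female mPFC (rho over all channel genes tested -0.75) and up in the male mPFC (0.70) and male ACC (0.71).

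In the female mPFC no channel gene was called by edgeR (0.00592% of all genes were) or DESeq2 (0.0726% of the genes it tested). By edgeR 5 had an unadjusted p under 0.05 against 12.1% of all genes. Scn7a was at 9.33, 9.96 and 10.98 CPM in the sham pools and at 11.5, 12.5 and 15.4 CPM in the SNI pools (log2 fold change 0.38 ± 0.12, adjusted p = 0.401). Hcn2 was at 169.9, 198.8 and 216.8 CPM in sham and at 160.6, 167.9 and 167.9 CPM in SNI pools (-0.24 ± 0.084, adjusted p = 0.401), and Cacna2d1 had a log2 fold change of 0.24 ± 0.095 (adjusted p = 0.403). With the GC trend taken out, these values were 0.18 for Scn7a, -0.048 for Hcn2 and 0.066 for Cacna2d1. The summed levels of 4 marker lists were lower in each SNI pool: inhibitory neurons (1020 to 1048 CPM in sham, 956.6 to 967.1 CPM in SNI), striatal neurons (226.8 to 291.3 and 218.0 to 221.7), oligodendrocyte precursors (291.1 to 325.2 and 221.2 to 283.4) and oligodendrocytes (3049 to 3497 and 1148 to 2869), with no gene of these lists called. The part of these lists was not tested. Without SNI replicate 1, the pool at 1148 CPM, the values were 0.25 for Scn7a, -0.25 for Hcn2 and 0.15 for Cacna2d1. Without sham replicate 3, which has no raised GC trend while the other sham pools do, 10 channel genes were called, 4 higher and 6 lower, beside 15.9% of all genes, among them Scn7a (0.44, adjusted p = 0.0557), Hcn2 (-0.33, adjusted p = 0.0203) and Cacna2d1 (0.33, adjusted p = 0.0412). Without a filter on low counts edgeR called Scn7a and Hcn2 (adjusted p = 0.0697 and 0.0685).

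In the female ACC no channel gene was called by edgeR (0.024% of all genes were), DESeq2 called Hcn2 (0.287% of the genes it tested), and 7 had an unadjusted p under 0.05 against 6.67% of all genes. Hcn2 was at 204.4, 205.8 and 215.2 CPM in sham and at 228.2, 228.4 and 243.5 CPM in SNI pools (0.16 ± 0.039, adjusted p = 0.476). Cacna2d2 went from 32.0, 32.2 and 32.5 CPM to 35.8, 37.1 and 37.2 CPM (0.18 ± 0.046, adjusted p = 0.476) and Scn1a from 171.2, 175.6 and 210.2 CPM to 211.2, 212.5 and 223.1 CPM (0.21 ± 0.064, adjusted p = 0.622). Without a filter on low counts edgeR called all 3 (adjusted p = 0.00731, 0.0845 and 4.16e-05). Of the 38 channel genes 8 were higher and 2 lower in each SNI pool than in each sham pool, and 11.9% of all genes were one or the other. With the GC trend taken out, the values were 0.16 for Hcn2, 0.20 for Cacna2d2 and 0.22 for Scn1a. Each SNI pool was also higher in the summed markers of parvalbumin interneurons (469.4 to 521.4 CPM in sham, 533.3 to 575.0 CPM in SNI), layer 6 neurons (142.4 to 162.5 and 169.5 to 202.8), astrocytes (6015 to 6107 and 6109 to 6189) and all neurons (15150 to 15540 and 15800 to 15900), and lower in those of meningeal fibroblasts (126.5 to 218.7 and 106.4 to 106.5, with 1 of 7 called). Sham replicate 1 stood apart with 945.3 CPM of choroid plexus and ependymal markers, against 6.86 and 14.4 CPM in the other sham pools, and without it the values were 0.15 for Hcn2, 0.18 for Cacna2d2 and 0.16 for Scn1a. The part of these lists was not tested. Without sham replicate 2, the pool highest in Scn1a and the library with the lowest GC trend of all 24 (-0.13), 3 channel genes were called, each higher after SNI, beside 0.8% of all genes, among them Scn1a (0.31, adjusted p = 0.0125).

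In the male ACC no channel gene was called by edgeR (0.00599% of all genes were) or DESeq2 (0.0104% of the genes it tested). By edgeR 2 had an unadjusted p under 0.05 against 4.48% of all genes. Scn1a (-0.21 ± 0.081) and Cacnb4 (-0.21 ± 0.12) were among those with the smallest p, each with an adjusted p of 0.768 and overlapping pools. With the GC trend taken out, they were -0.11 and -0.059. Leaving out sham replicate 1 or 2 brought Cacnb4 to -0.14 and -0.13. Without sham replicate 3, a library with a raised GC trend, 9 were called, 4 higher and 5 lower, beside 13.5% of all genes, among them Scn1a (-0.26, adjusted p = 0.0554) and Cacnb4 (-0.34, adjusted p = 0.0321).

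Over both sexes, in the model of all 24 libraries, edgeR called no channel gene in the mPFC or in the ACC (0% of all genes in either). DESeq2 called none there either (0.616% and 0.009% of the genes it tested). By edgeR 3 and 4 had an unadjusted p under 0.05 against 8.67% and 5.92% of all genes. In the mPFC the smallest p belonged to Cacna2d4 (-0.34 ± 0.13, adjusted p = 0.423), Cacna2d2 (-0.14 ± 0.058, adjusted p = 0.483) and Cacna2d1 (0.13 ± 0.064, adjusted p = 0.573). After the GC trend was taken out, these were -0.31, -0.11 and 0.069. Cacna2d1 was at 0.044 without the 5 libraries with a raised GC trend and at 0.081 without female SNI replicate 1. In the ACC they belonged to Scn9a (-0.60 ± 0.22), Hcn2 (0.15 ± 0.057) and Cacna2d2 (0.13 ± 0.057), each with an adjusted p of 0.791, and had -0.55, 0.077 and 0.10 with the GC trend taken out. For Scn9a the female pools ran from 1.32 to 1.53 CPM in sham and from 0.47 to 1.02 CPM in SNI, and the male pools overlapped. For the abundant genes Scn1a and Cacna1e, which separated the regions, the 95% interval of the log2 fold change over both sexes was -0.13 to 0.14 and -0.068 to 0.094 in the mPFC, and -0.12 to 0.14 and -0.10 to 0.059 in the ACC. These values average over the sexes: in the ACC Scn1a had 0.21 in females and -0.21 in males, and in the mPFC Cacna1e had 0.12 and -0.095. In the ACC the difference between the sexes in the SNI value of Scn1a, female minus male, was 0.42 (95% interval 0.15 to 0.68), the smallest p of the channel genes in that contrast, which was added after the data were seen (edgeR, unadjusted p = 0.00267, adjusted p = 0.708). It did not pass the test over all genes, of which 0% were called and 7.01% had an unadjusted p under 0.05. Missing the threshold does not show that these genes were alike in SNI and sham mice.

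**Figure D5:**
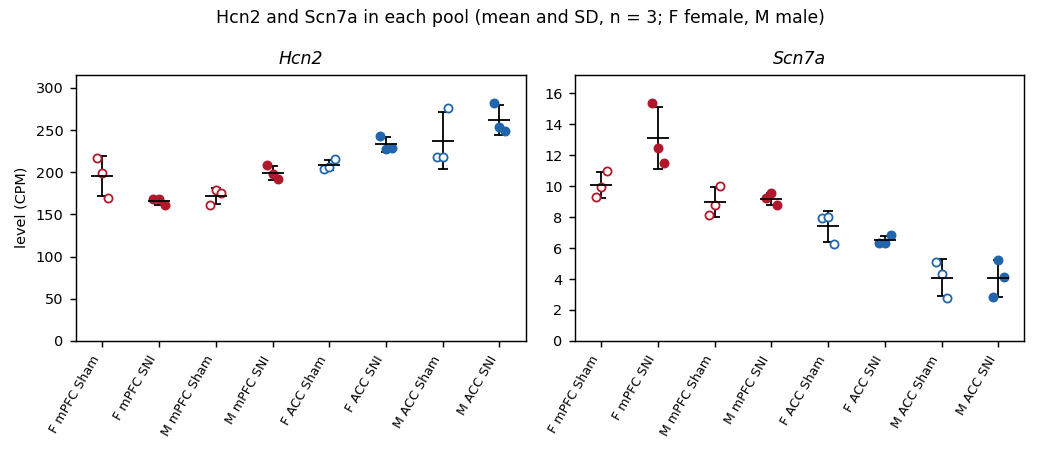
Level in CPM (y axis, linear from 0) of Hcn2 and Scn7a in each of the 8 groups, with a point for each pool and the mean and SD (n = 3). The mean of Hcn2 is 195.2 CPM in sham and 165.5 CPM in SNI pools of the female mPFC and 171.8 and 199.1 CPM in the male mPFC, and Scn7a is highest in the female SNI mPFC pools.

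Between the sexes, over all 24 libraries, 2 of 38 channel genes were called (6.29% of all genes were), 1 higher in females and 1 higher in males (3.1% and 3.19% of all genes). Scn7a was higher in females by a log2 fold change of 0.55 ± 0.085 (adjusted p = 0.000598). Its female pools had means of 10.1 ± 0.83 CPM in the sham mPFC, 13.1 ± 2.01 in the SNI mPFC, 7.41 ± 0.998 in the sham ACC and 6.495 ± 0.31 in the SNI ACC (SD, n = 3), and its male pools 8.99 ± 0.97, 9.19 ± 0.38, 4.08 ± 1.19 and 4.06 ± 1.20 CPM. In the ACC every female pool lay above every male pool, and in the sham mPFC they overlapped. Cacng7, a type II TARP, was lower in females (-0.12 ± 0.039, adjusted p = 0.0922), and this call was lost with scaling to pan-neuronal genes (adjusted p = 0.143) and in 16 of the 24 fits that left out 1 library (adjusted p from 0.0455 to 0.161). With the GC trend taken out, Cacng7 had -0.073 (adjusted p = 0.0516) and Scn7a 0.48. Across the 38 genes the rho of the sex difference with exon GC content was -0.63. The part of the GC trend in these values was not tested. The interaction of region and sex called none (0% of all genes), with the smallest p for Scn3b (-0.17 ± 0.055, adjusted p = 0.241), and 4 genes had an unadjusted p under 0.05 against 13.7% of all genes. The interaction of region and SNI called none (0%), with the smallest p for Cacna2d2 (-0.27 ± 0.081, adjusted p = 0.394), and 3 had an unadjusted p under 0.05 against 9.53%. DESeq2 called none of the channel genes in either (1.65% of the genes it tested for region and sex, 0.15% for region and SNI). The interaction of sex and SNI called none by edgeR (0.00553% of all genes), with the smallest p for Cacnb4 (0.30 ± 0.099, adjusted p = 0.153). In that interaction 13 had an unadjusted p under 0.05 against 19.9% of all genes, DESeq2 called 8 (16.2% of the genes it tested), and rho with exon GC content was -0.81 across the 38 genes. Over both sexes and regions DESeq2 called 6 channel genes between females and males (11.1% of the genes it tested).

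Without the filter on low counts edgeR called more genes in several of these comparisons, over all genes as well as among the channel genes. For SNI it called 2 channel genes in the female mPFC (2.19% of all genes), 5 in the female ACC (1.38%), 4 in the male mPFC (2.01%) and 0 in the male ACC (0.0347%). Over both sexes it called 0 in the mPFC (1.74%) and 1, Hcn2, in the ACC (0.737%). It called 8 for sex (5.96%), 2 for region by SNI (1.78%), 3 for region by sex (2.89%) and 10 for sex by SNI (5.53%).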

How the data were processed

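The authors punched both regions, pooled animals, sequenced total RNA and deposited raw read counts per gene in 4 tables, 1 for each sex and region. The submitters' processing notes name Trimmomatic 0.36, Bowtie2 2.33, HISAT2 2.1.0, HTSeq 0.9.1, edgeR 3.34.0 and the build GRCm38; the annotation release and the use of strand in counting are not given in the sources used here. Identifiers were matched to GENCODE M21, all 33364 with a gene name.

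The deposited counts were tested in R 4.3.3 with edgeR 4.0.16 (TMM scaling, filterByExpr with a minimum count of 10 and total of 15, quasi-likelihood F-test, Benjamini-Hochberg adjustment over all genes tested, called under 0.1). Comparisons within a sex, region or treatment used their own 6 libraries, and the others a model of the 8 group means over 24 libraries (16 residual degrees of freedom). Standard errors are the log2 fold change divided by the square root of F. Full values are given for the 12 channel genes with the smallest p between regions, for up to 6 called genes and the 3 smallest p in the other comparisons and for the leading gene of each class, with all others summarised or given briefly; a few channel genes enter the counts, class shares and correlations but are not reported here by name or drawn. The members and the gene lists were chosen with earlier results of these data known. Alternatives were DESeq2 1.42.0, other filters, scalings and thresholds, a correction of the GC trend, a replicate block and leaving out each library. A count of 0 allows up to 3 reads. This floor covers counting error only. The 95% intervals use the standard error from the edgeR fit and a t quantile with 16 degrees of freedom, and include the spread between pools. They are not the intervals of the F-test itself and can differ slightly from its p-values.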

Additional observations from a re-analysis of the deposited data

Results flagged for a closer look

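Hcn2 in the mPFC was the 1 channel gene whose SNI pools lay on opposite sides of sham in the sexes. In females the sham pools had 169.9, 198.8 and 216.8 CPM and the SNI pools 160.6, 167.9 and 167.9 CPM, so that every SNI pool was lower. In males the sham pools had 161.0, 175.5 and 178.9 CPM and the SNI pools 191.7, 197.4 and 208.2 CPM, so that every SNI pool was higher. The difference between the sexes in the log2 fold change of SNI minus sham, female minus male, was -0.45 ± 0.115 (edgeR, unadjusted p = 0.000648, adjusted p = 0.267) and did not pass the test over all genes. This contrast was added after the data were seen. Pools on opposite sides were found in 1.49% of all genes in the mPFC. With the GC trend taken out the log2 fold changes were -0.048 in females and 0.056 in males, and over the 38 channel genes this difference between the sexes had a Spearman rho of -0.89 with exon GC content. The part of the GC trend in this result was not tested further.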

How the results depend on the processing

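Between the regions 34 channel genes were called in every alternative that kept all libraries but 4, and without the 5 libraries with a raised GC trend. No direction turned among the calls. There were 33 with at least 10 counts in every library (Cacng6 was lost) and 36 with the GC correction (Cacna2d1 and Scn2a gained). The replicate block and GC correction gave 37 (Cacna2d1, Cacng3 and Scn2a gained), and scaling to pan-neuronal genes 35 (Scn2a gained). That scaling gave Cacng3, not called, a value of 0.0033, and Cacna2d1 had -0.011, -0.0039 and -0.0091 without single libraries (range over all libraries left out -0.011 to 0.0402). The median of all genes never moved by more than 0.1. For SNI in the male mPFC the 1 call (84 of all genes) became 2 with the stricter filter (130), 5 with DESeq2 (255), 4 with no filter (596), 7 with the replicate block (745, 4.39% of all genes; adjusted p = 0.0262 for Hcn2 and 0.0206 for Cacna1i), and 0 with the threshold of 0.05, the GC correction, the model of all 24 libraries, the block with GC correction or pan-neuronal scaling. With no filter on low counts 2 were called in the female mPFC, 5 in the female ACC (DESeq2 1), 1 in the ACC of both sexes, 2 for region by SNI, 3 for region by sex, and 10 for sex by SNI (DESeq2 8). For sex the 2 calls (1137 of all genes) became 4 with the stricter filter (1426), 6 with DESeq2 (1556), 1 at 0.05 (493) and 8 with no filter (1989). They became 3 with the GC correction (871) or with the block and GC correction (903). With the replicate block there was 1 (960 of all genes, Cacng7 at an adjusted p of 0.118). Without the 5 libraries with a raised GC trend, which were chosen after seeing the data, there were 7 (1247).

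Leaving out 1 library at a time gave 34 to 35 calls between regions (35 without female SNI mPFC replicate 3, with Scn2a gained), 20 to 26 in female sham, 28 to 32 in female SNI, 14 to 28 in male sham (14 without mPFC replicate 2 or 3, 6 higher and 8 lower) and 20 to 31 in male SNI mice. For SNI it gave 0 to 10 in the female mPFC, 0 to 3 in the female ACC, 0 to 1 in the male mPFC, 0 to 9 in the male ACC and 0 for both sexes in either region. It gave 1 to 7 for sex (7 without female sham mPFC replicate 1), 0 to 1 for region by sex, 0 for region by SNI and 0 to 14 for sex by SNI, where 13 were called without female sham mPFC replicate 3, 14 without male sham ACC replicate 3 and 7 without male SNI ACC replicate 3. The cause of these shifts was not tested. Except where a share of all genes is given above, these counts were not set against all genes. They are therefore not read as a result about the channel genes in particular. Replicate numbers were not taken to pair the samples, since not every same-numbered pair correlated above 0.1: the correlation of same-numbered sham and SNI libraries ran from -0.54 to 0.38, over 0.1 in 6 of 12 pairs, and 13 of 24 libraries correlated best with their own number. Across regions it ran from -0.31 to 0.30, over 0.1 in 4 of 12 pairs, with 9 of 24. The same-numbered sham and SNI pairs had 0.31, 0.27 and 0.048 in the male mPFC, and -0.30, -0.23 and -0.54 in the male ACC.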
